A study of Solanum lycopersicum with 48 samples.

Results

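The middle segment of tomato chromosome 9 is described here by the genes whose locus numbers run from Solyc09g015100 to Solyc09g065000. A gene of that range was a member when it reached 1 FPKM (sequenced fragments of a gene, divided by its length and by the library's total) in at least 3 of the 48 libraries. This held for 304 of the 500 genes that the table lists in the range, out of 22117 genes that pass the same filter in the whole table. The segment was chosen because its genes differed between the cultivars Guozhen No.1 and Guizhen No.1 in these same libraries. Every difference between the cultivars is therefore given as a description without a test, while the changes with nitrogen within a cultivar, a contrast that did not enter the choice, were tested. The difference of that change between the cultivars is made of the same values as the choice, so its counts and sizes are also a description.

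Plants were grown in hydroponics in a growth chamber on full Hoagland solution with 1 mM nitrogen (low) or 9 mM nitrogen (normal, the level labelled as the control). Roots and leaves of Guozhen and of Guizhen were taken at day 1 and at day 7, which gives 16 groups of 3 libraries. The age of the plants, the event from which days were counted and the pedigree of the cultivars are not given in the labels, which also do not say whether the 3 libraries of a group come from separate plants. The p-values below therefore measure the spread between libraries. Per library, 16983 to 18640 genes reached 1 FPKM. A pair of loci preset as Rubisco small subunits, Solyc02g063150 and Solyc03g034220, reached at least 617 FPKM in every leaf library and at most 49.3 FPKM in every root library, so that the organ labels held.

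The middle of tomato chromosomes is pericentromeric heterochromatin, in which genes are sparse and crossing over is rare, so that long stretches are usually inherited as 1 block. Breeders have moved resistance genes from wild tomato relatives into cultivated lines, and such introgressions often carry long neighbouring stretches with them. The Tm-2 resistance to tomato mosaic virus is known to lie in the heterochromatic middle of chromosome 9. Locus numbers of the Solyc form follow the order of genes along a chromosome. The sources used here pair none of the 500 locus numbers with a gene name, so that members are given by locus number alone and without a role.

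Members were fewer and somewhat weaker in expression than elsewhere. Of the genes listed in the segment 60.8% passed the filter, against 81.7% of the other chromosome 9 loci and 74% of all rows. The median of the members' mean level was 7.85 FPKM, against 10.8 FPKM for the other chromosome 9 loci that pass and 9.80 FPKM for all genes that pass. Mean levels were below 1 FPKM in 46 members and at least 100 FPKM in 4. In 57 members the mean was at least 2-fold higher in root than in leaf, and in 53 it was at least 2-fold higher in leaf. The most abundant members in root were Solyc09g018170, Solyc09g057650, Solyc09g018750 and Solyc09g057670, with means of 213, 168, 162 and 121 FPKM. In leaf they were Solyc09g063130, Solyc09g031970, Solyc09g064630 and Solyc09g064500, with means of 650, 141, 138 and 130 FPKM. In whole organs, fewer cells of a type and less RNA per cell cannot be told apart.

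The filter itself can favour genes that are high in 1 cultivar. It would have been passed with the Guozhen libraries alone or the Guizhen libraries alone by 274 members, with the Guozhen libraries only by 15, with the Guizhen libraries only by 13, and by 2 with neither alone. Just under the threshold, Solyc09g055860 and Solyc09g018710 had a third-highest library of 0.959 and 0.954 FPKM. Just over it, Solyc09g059580 and Solyc09g018720 had 1.03 and 1.04 FPKM.

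Most members were close between the cultivars, and a minority was far apart in either direction. Differences are given as Guozhen minus Guizhen of the mean of log2(FPKM + 1), a scale that understates the fold of weakly expressed genes. Averaged over the 8 combinations of organ, day and nitrogen, 262 of the 304 members lay within 0.5 of zero, 142 lay above zero, 7 were at least 1 above it and 3 at least 1 below it. The median member lay between -0.07 and 0.04 in the 8 comparisons.

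A member was counted as apart when the cultivars differed by at least 1 on the log2 scale, which is 2-fold, and the 3 libraries of one cultivar did not overlap the 3 of the other. In roots of day 1 this held for 10 members at low nitrogen, of which 6 were higher in Guozhen, and for 13 at normal nitrogen, of which 6 were higher in Guozhen. Those are 3.29% and 4.28% of the members, and the same count over all genes is 1.09% at low and 1.65% at normal nitrogen. In roots of day 7 it held for 17 members at low nitrogen (9 higher in Guozhen) and for 19 at normal nitrogen (11 higher), which is 5.59% and 6.25% of the members, against 2.69% and 1.13% of all genes. In leaves of day 1 it held for 10 members at low nitrogen (8 higher in Guozhen) and for 18 at normal nitrogen (12 higher), which is 3.29% and 5.92%, against 1.59% and 2.56% of all genes. In leaves of day 7 it held for 13 members at low nitrogen (10 higher in Guozhen) and for 16 at normal nitrogen (7 higher), which is 4.28% and 5.26%, against 1.61% and 1.06% of all genes. The segment was chosen on these values, so nothing is read from the excess. Nor was the excess particular to the segment: chromosome 9 before it had 3.07% to 6.32% of genes apart in the same comparisons. Chromosome 9 after it had 0.826% to 3.86%. Libraries that did not overlap, whatever the size of the difference, were found in 29.6% and 33.2% of the members in roots of day 1 at low and normal nitrogen, against 11.4% and 16.9% of all genes, and in 39.1% and 36.2% in roots of day 7, against 27.9% and 17.3%. In leaves it was 26.3% and 37.5% of the members on day 1, against 13.3% and 26.4% of all genes, and 28.6% and 27.3% on day 7, against 17.6% and 13.1%. With 1 library left out, some of the 2-fold counts were higher. Without Guizhen replicate 1 there were 16 in roots of day 1 at low nitrogen. Without Guozhen replicate 1 there were 16 in leaves of day 1 at low nitrogen, and without Guozhen replicate 2 there were 25 in leaves of day 7 at normal nitrogen. Since 2 libraries overlap 3 less often than 3 do by construction, these rises are not credited to the libraries left out. The same counts over all genes are not given.

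**Figure D1:**
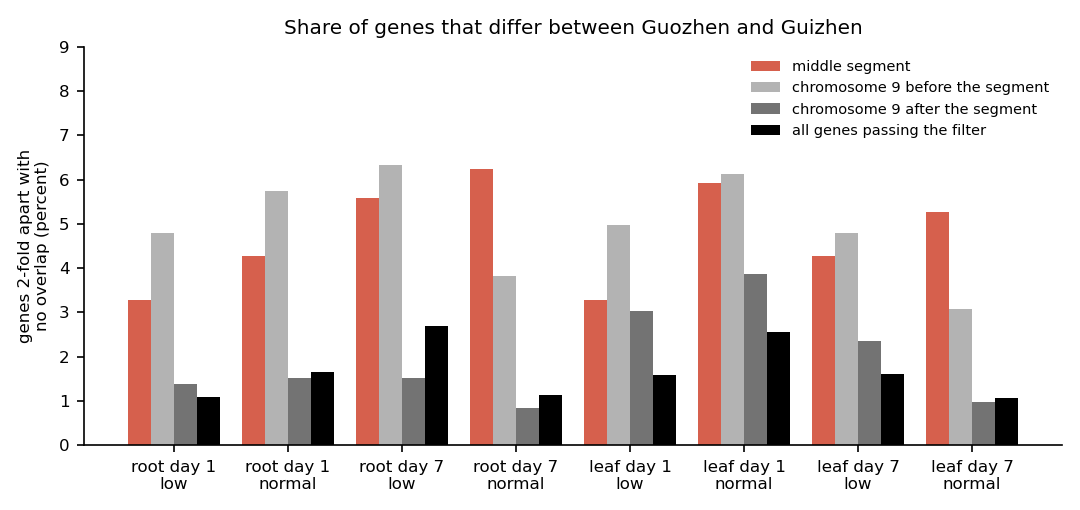
Percent of genes (vertical axis) at least 2-fold apart between Guozhen and Guizhen with no overlap of libraries, in each organ, day and nitrogen level (horizontal axis); the 4 bars of a condition stand for the middle segment, chromosome 9 before it, chromosome 9 after it and all genes. The segment's bars run from 3.29% to 6.25% and those of all genes from 1.06% to 2.69%. Those of chromosome 9 before the segment run from 3.07% to 6.32%, and those after it from 0.826% to 3.86%.

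Over the 8 comparisons, 46 members (15.1%) were apart at least once, against 8.54% of all genes. Of these, 23 were apart only as higher in Guozhen, 21 only as lower, and 2, Solyc09g031590 and Solyc09g047930, in both directions, while 258 members were never apart. The libraries of 13 members, 6 higher and 7 lower in Guozhen, did not overlap in the same direction in all 8 comparisons, whatever the size of the difference. That is 4.28% of the members, against 0.402% of all genes. Within the 4 root comparisons it held for 29 members and 0.85% of all genes, and within the 4 leaf comparisons for 22 members and 0.864% of all genes.

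The differences were not spread evenly along the segment. In 8 consecutive stretches of 38 members, the share of members apart, averaged over the 8 comparisons, was 2.96%, 10.5%, 5.59%, 7.24% and 6.58% in the first to the fifth, and 1.32%, 2.63% and 1.32% in the last 3. A member apart in several comparisons counts in each of them. Members apart at least once numbered 8, 7, 7, 8 and 6 in the first to the fifth stretch, and 3, 4 and 3 in the last 3. The fifth stretch ended at Solyc09g059400. Before the segment, the stretch from Solyc09g011330 to Solyc09g011770 had 20.9%, the highest on the chromosome. After the segment the stretches ranged from 0.329% to 6.91%, and 1 of 726 genes there was without overlap in all 8 comparisons, against 11 of 522 genes before the segment. Over the whole of chromosome 9, 13.5% of genes were apart at least once, against 6.56% to 8.88% on the other 11 numbered chromosomes. Of the 172 genes whose locus number gives chromosome 0, it was 14.0%.

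The genes just inside and just outside the segment differed by varied amounts. The first members, Solyc09g015120 and Solyc09g015170, differed between Guozhen and Guizhen by 0.20 and -0.27 in root and by 0.17 and -0.42 in leaf, and Solyc09g015170 was 2-fold apart without overlap in 1 of the 8 comparisons. That was leaves of day 1 at normal nitrogen, at -2.08, while its other leaf differences were 0.17, 0.32 and -0.08. The last genes before the segment, Solyc09g015040 and Solyc09g015080, differed by 0.00 and -0.26 in root and by -0.41 and -0.04 in leaf. At the other end the last members, Solyc09g064940 and Solyc09g065000, differed by -1.59 and -0.20 in root and by -0.49 and -0.04 in leaf. The -1.59 came from roots of day 1 at normal nitrogen alone, at -6.43. In the other root conditions Solyc09g064940 differed by 0.07, -0.12 and 0.14. The first genes after the segment, Solyc09g065010 and Solyc09g065020, differed by 0.11 and 0.45 in root and by 0.06 and -0.09 in leaf. Libraries did not overlap in 4 of 8 comparisons for Solyc09g015120, 3 for Solyc09g015040, 3 for Solyc09g064940, 3 for Solyc09g065010 and 5 for Solyc09g065020. For Solyc09g064940 (1 higher and 2 lower in Guozhen) and Solyc09g065020 (4 higher and 1 lower) this was in both directions.

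**Figure D2:**
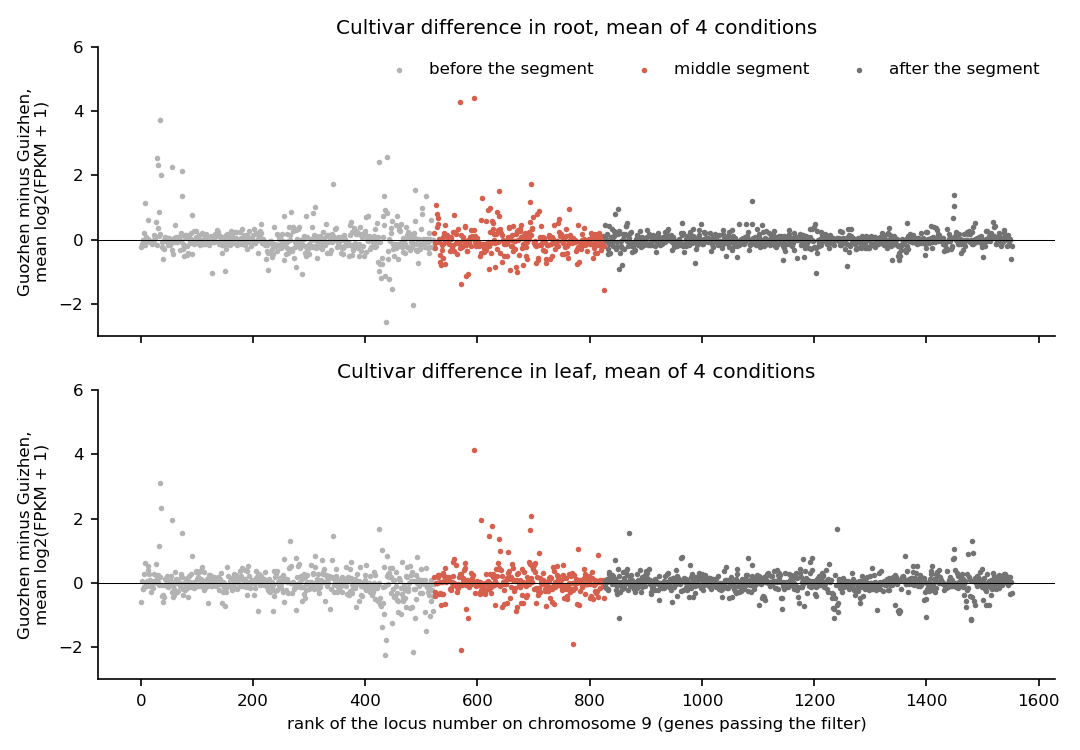
Guozhen minus Guizhen of mean log2(FPKM + 1), averaged over the 4 conditions of root (upper panel) or leaf (lower panel), for each chromosome 9 gene that passes the filter, in the order of its locus number; each point is 1 gene. Most of the 304 segment members lie near zero, and Solyc09g020190 stands at 4.41 in root and 4.13 in leaf.

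Among members higher in Guozhen, Solyc09g020190 had the largest difference averaged over the 8 comparisons, while in roots of day 1 that of Solyc09g018590 was larger. In Guozhen Solyc09g020190 had a lowest, median and highest level of 15.6, 27.0 and 38.6 FPKM in root and 5.62, 25.6 and 75.2 FPKM in leaf. In Guizhen the median was 0 FPKM in both organs, and 18 of 24 libraries listed it at 0. The Guizhen exceptions were 1 root library of day 1 at normal nitrogen with 12.6 FPKM and 1 leaf library of day 1 at normal nitrogen with 24.8 FPKM, both numbered replicate 1. The remaining 22 Guizhen libraries were at most 0.144 FPKM. No Guozhen library was below 5.62 FPKM, and in none of the 8 comparisons did the cultivars overlap. An exact 0 can be a failed estimate, and no fold is given against it.

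Solyc09g018590 was a root gene of Guozhen at day 1. Its Guozhen roots had 66.3, 79.8 and 138 FPKM at low nitrogen and 133, 103 and 79 FPKM at normal nitrogen on day 1. On day 7 they had 1.60, 5.88 and 6.90 FPKM at low nitrogen and 6.70, 2.22 and 1.11 FPKM at normal nitrogen. Guizhen roots did not exceed 0.677 FPKM in any of the 12 libraries and most were listed at 0. In leaves the highest library of Guozhen had 0.887 FPKM and that of Guizhen 0.0759 FPKM.

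Solyc09g059020 was expressed in both cultivars and both organs. In root its lowest, median and highest levels were 20.5, 32.2 and 51.8 FPKM in Guozhen and 5.26, 8.50 and 15.9 FPKM in Guizhen, a mean difference of 1.73. In leaf they were 29.8, 38.2 and 48.4 FPKM in Guozhen and 5.37, 8.63 and 11.2 FPKM in Guizhen, a mean difference of 2.08. All 12 libraries of Guozhen lay above all 12 of Guizhen in each organ.

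Solyc09g057960 was higher in Guozhen without overlap in all 8 comparisons, at 0.65 to 23.6 FPKM in Guozhen root against 0.267 to 5.06 FPKM in Guizhen root, and 12 to 58.9 FPKM in Guozhen leaf against 1.82 to 21.5 FPKM in Guizhen leaf. Its differences averaged 1.18 in root and 1.66 in leaf. The ranges over all conditions overlapped, while within each condition the libraries were separate. Solyc09g018790 was apart by less, with a mean difference of 0.43 in root and 0.60 in leaf, on levels of 51.2 to 76.9 FPKM in Guozhen root and 35.3 to 64.4 FPKM in Guizhen root.

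A few differences were larger in 1 organ. Solyc09g030450 had a lowest, median and highest level of 3.16, 6.28 and 14.6 FPKM in Guozhen leaf and 0.363, 0.916 and 2.08 FPKM in Guizhen leaf, a mean difference of 1.97, while in root the mean difference was 0.62. Solyc09g031920 had 5.40, 8.93 and 13.7 FPKM in Guozhen root and 1.66, 4.74 and 7.89 FPKM in Guizhen root, a mean difference of 0.92, while in leaf it was -0.06. Whether these differences depend on the organ was not tested.

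Of the members lower in Guozhen, those named by the rule had mean differences between -1.14 and -0.49 on the log2 scale. Solyc09g018960 had a lowest, median and highest level of 7.97, 11.1 and 13.2 FPKM in Guozhen root and 17.1, 24 and 27.4 FPKM in Guizhen root. In leaf it had 3.38, 7.11 and 11.7 FPKM in Guozhen and 10.6, 16 and 22.9 FPKM in Guizhen. Its mean differences, -1.08 in root and -1.11 in leaf, were close to each other, and the cultivars were separate in every condition. Solyc09g018830 differed by -1.14 in root and -0.82 in leaf, with medians of 3.28 FPKM in Guozhen root and 8.92 FPKM in Guizhen root. Solyc09g056200 differed by -0.87 in root and in leaf, with medians of 16.6 FPKM in Guozhen root and 27.2 FPKM in Guizhen root. Solyc09g042780 differed by -0.86 in root and -0.69 in leaf. These 4 members and Solyc09g064610, at -0.57 in root and -0.49 in leaf, did not overlap between the cultivars in any of the 8 comparisons. Solyc09g056270 differed by -1.005 in root, where its libraries never overlapped, and by -0.74 in leaf, where they did not overlap in 3 of 4 conditions.

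Of the abundant members, Solyc09g057650 was lower in Guozhen. Its lowest, median and highest levels were 68.1, 122 and 183 FPKM in Guozhen root and 137, 218 and 274 FPKM in Guizhen root, and no root comparison overlapped. Solyc09g018170, Solyc09g018750 and Solyc09g057670 differed in root by -0.17, -0.04 and 0.00. In leaf Solyc09g018170 differed by 0.65 on average. It was 2-fold apart without overlap, higher in Guozhen, in leaves of day 7 at low nitrogen, at 1.14. Solyc09g018220, preset as a locus of interest, was higher in Guozhen without overlap in 5 of 8 comparisons. In leaves of day 1 at normal nitrogen it had 5.72, 5.55 and 5.83 FPKM in Guozhen and 1.52, 1.54 and 1.78 FPKM in Guizhen.

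**Figure D3:**
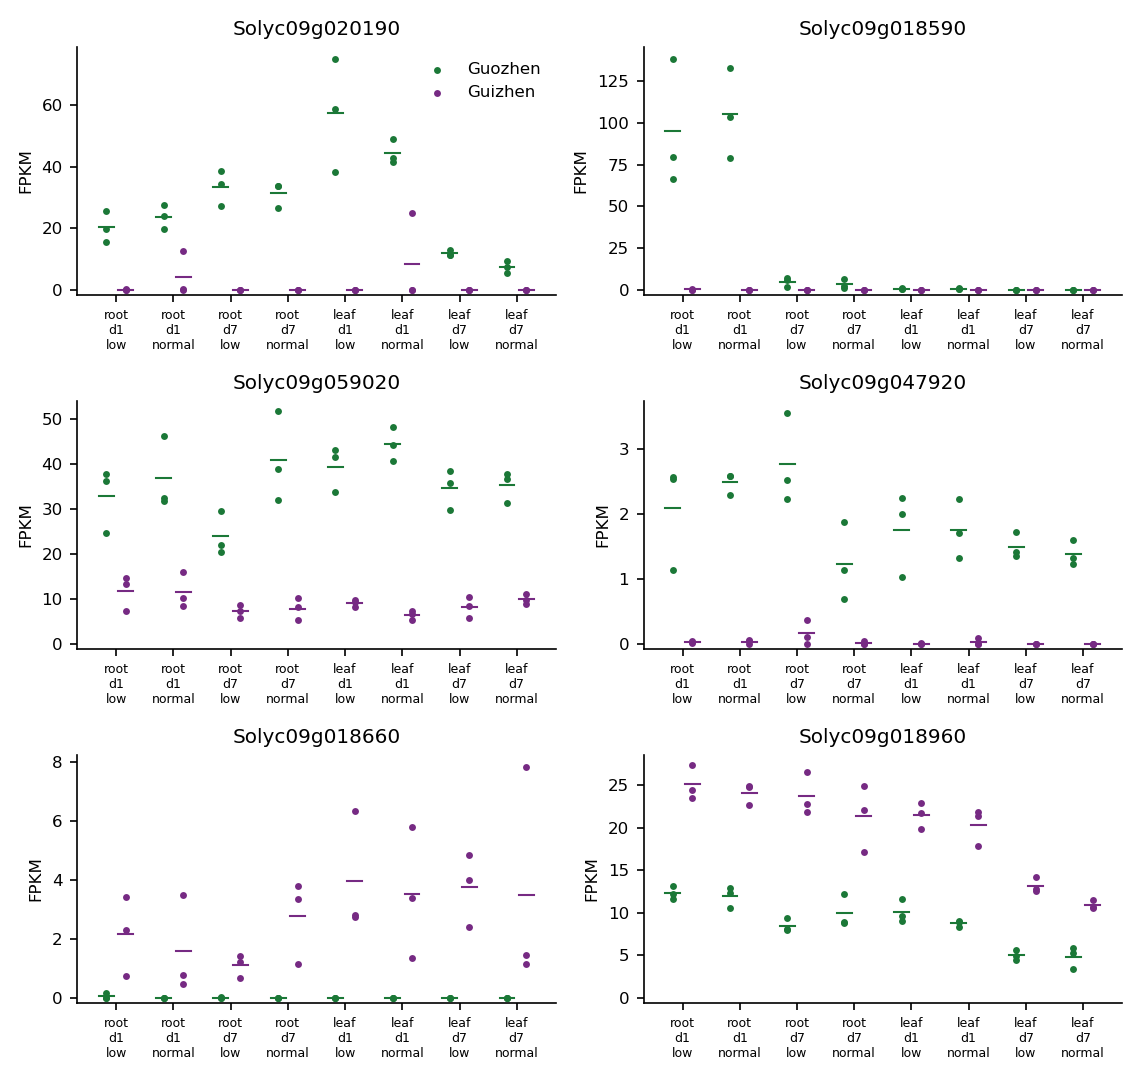
FPKM on linear axes of 6 members in each organ, day (d1, d7) and nitrogen level; points are single libraries, with Guozhen left of Guizhen, and short lines are means of 3 libraries. Solyc09g018590 rises above 60 FPKM only in Guozhen roots of day 1, and Solyc09g018660 is at most 0.176 FPKM in every Guozhen library.

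Some weakly expressed members were close to absent in 1 cultivar. They were chosen after their values were seen, by a level of at most 0.5 FPKM in all 24 libraries of one cultivar with at least 1 FPKM in at least 3 libraries of the other. Solyc09g042670, Solyc09g047920, Solyc09g055660 and Solyc09g059130 were near absent in Guizhen, which is 4 of 304 members, against 0.312% of all genes. Solyc09g018660 and Solyc09g060030 were near absent in Guozhen, which is 2 members, against 0.24% of all genes. Solyc09g047920 had a lowest, median and highest level of 0.694, 1.80 and 3.56 FPKM in Guozhen and at most 0.373 FPKM in Guizhen, where 14 of 24 libraries listed it at 0. Solyc09g042670 ranged from 0.718 to 4.73 FPKM in Guozhen leaf, and all 12 Guizhen root libraries listed it at 0. Solyc09g018660 was listed at 0 in 22 of 24 Guozhen libraries and had 0.465, 2.57 and 7.83 FPKM as lowest, median and highest level in Guizhen. Solyc09g047920 and Solyc09g018660, together with Solyc09g020190 and Solyc09g059020, were the 4 members 2-fold apart without overlap in all 8 comparisons.

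A number of members switched between libraries of the same group. In 20 of the 304 members (6.58%) at least 1 group of 3 held a library below 1 FPKM and another above 5 FPKM, and this held for 4.49% of all genes. Solyc09g031940 did so in 12 of the 16 groups and Solyc09g031590 in 10. Guozhen leaves of day 7 had 27.8, 23.5 and 0.00686 FPKM of Solyc09g031940 at low nitrogen and 30.2, 34.7 and 0.0158 FPKM at normal nitrogen. In Solyc09g047930, 21 libraries had at most 0.678 FPKM, 27 libraries had 7.49 to 15.2 FPKM, and none lay between. Libraries below 1 FPKM were 8 of 24 in Guozhen and 13 of 24 in Guizhen. Whether reads of neighbouring or similar genes were divided differently between libraries was not tested, and the 2 members that were apart in both directions, Solyc09g031590 and Solyc09g047930, are among these 20.

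The response to low nitrogen was tested with limma in each cultivar, organ and day, on 278 members in root and 272 in leaf that pass the filter within the organ. Benjamini-Hochberg adjustment ran over all 20435 genes in root or 19815 in leaf, and an adjusted p below 0.05 counted as a call. On day 1 almost no member was called. In Guozhen roots limma called 0 members, against 0.0391% of all genes, and 8 members had an unadjusted p below 0.05. In Guizhen roots limma called 2 members, the neighbours Solyc09g064930 and Solyc09g064940. These were the only genes called, 0.00979% of all genes. In root Solyc09g064940 passed the filter only through the Guizhen libraries of day 1 at normal nitrogen, so that it had to differ. Its call is not a test result, and nothing is read from this count beside the share of all genes. In leaves of day 1 limma called 1 member in Guozhen and 1 in Guizhen, against 0.0606% of all genes in Guozhen and 0.116% in Guizhen.

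By day 7 many members had changed, at rates near those of all genes. In Guozhen roots 66 members were called, 30 higher and 36 lower at low nitrogen, which is 23.7% of those tested, against 27.6% of all genes. In Guizhen roots 20 were called, 13 higher and 7 lower, which is 7.19%, against 7.92% of all genes. In Guozhen leaves 44 were called, 35 higher and 9 lower, which is 16.2%, against 17.7% of all genes. In Guizhen leaves 46 were called, 34 higher and 12 lower, which is 16.9%, against 16.6% of all genes. In root 8 members were called in both cultivars, which is 12.1% of the Guozhen list and 40% of the Guizhen list, and in leaf 24 were, which is 54.5% and 52.2%. All of these moved in the same direction in both cultivars. Of the 13 members that never overlapped between the cultivars, limma called 2 in Guozhen roots, 3 in Guozhen leaves and 2 in Guizhen leaves on day 7, and none in the other 5 responses.

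The direction of the leaf calls depended on the scaling between libraries. With FPKM as deposited the median gene of all genes was higher at low nitrogen by 0.14 in Guozhen and 0.16 in Guizhen leaves of day 7, and with median-of-ratios scaling by 0.02 and 0.03. With that scaling, 33 members were called in Guozhen leaves, 13 higher and 20 lower, against 15.1% of all genes, 1191 higher and 1792 lower. In Guizhen leaves 33 members were called, 15 higher and 18 lower, against 13% of all genes, 991 higher and 1591 lower. The counts also rested on single libraries. Without low nitrogen replicate 2 or 3, or normal nitrogen replicate 2, the Guozhen leaf count was 13, 21 or 24. Without low nitrogen replicate 1 or 2 the Guizhen leaf count was 7 or 6, and without normal nitrogen replicates 1, 2 or 3 it was 21, 23 or 19. The Guizhen root count was 5 or 6 without low nitrogen replicate 1 or 2, and 7 or 10 without normal nitrogen replicate 2 or 3. The Guozhen root count was 41 without low nitrogen replicate 1. Counts over all genes moved as well. In Guizhen, without low nitrogen replicate 1 or 2, they were 796 or 618 in leaves, against 3289 with all libraries. In Guizhen roots they were 504 or 457, against 1618. Without Guozhen low nitrogen replicate 2 they were 1176 in its leaves, against 3515. Without replicate 1 they were 3892 in its roots, against 5640.

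**Figure D4:**
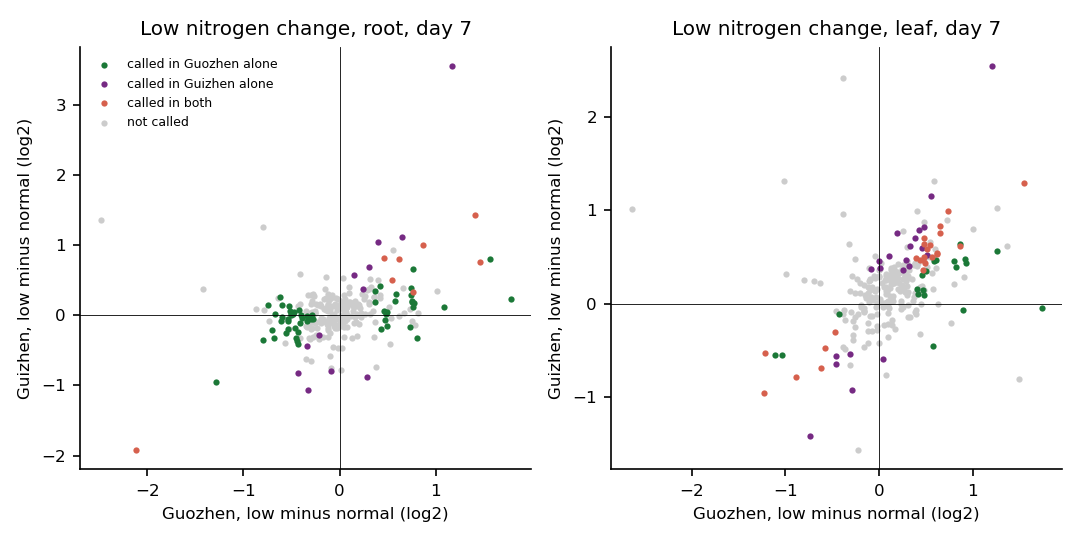
Low minus normal nitrogen on the log2(FPKM + 1) scale on day 7, Guozhen on the horizontal and Guizhen on the vertical axis, for the members tested in root (left) and leaf (right); each point is 1 member, coloured by the cultivar in which limma called it. In leaf 24 members were called in both cultivars and in root 8, all in the quadrants of equal sign.

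In roots of day 7, Solyc09g064910 fell at low nitrogen in both cultivars. Guozhen roots had 7.85, 4.92 and 4.24 FPKM at low nitrogen and 27.8, 25.4 and 28.3 FPKM at normal nitrogen, a change of -2.11 ± 0.31 (limma, SE, n = 3 each, adjusted p = 0.000127). Guizhen roots had 3.45, 3.64 and 8.79 FPKM at low nitrogen and 26.6, 18.2 and 19.6 FPKM at normal nitrogen, a change of -1.92 ± 0.31 (limma, adjusted p = 0.00145). The nitrogen levels did not overlap in either cultivar. The Guizhen call was lost when only its 6 libraries entered the fit (limma, adjusted p = 0.0888).

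Solyc09g018280 rose in roots of both cultivars on day 7. It had 33.7, 40.4 and 38.9 FPKM at low nitrogen and 15.6, 11.2 and 13.9 FPKM at normal nitrogen in Guozhen (1.41 ± 0.21, limma, adjusted p = 0.000126). In Guizhen it had 36.5, 32.9 and 22.0 FPKM at low nitrogen and 12.5, 10.6 and 8.44 FPKM at normal nitrogen (1.44 ± 0.21, limma, adjusted p = 0.000569). Levels at low nitrogen lay above those at normal nitrogen in all libraries of both cultivars. The Guizhen call was lost with only the 6 libraries in the fit (limma, adjusted p = 0.079).

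In Guozhen roots of day 7 the largest rise among the members named by the rule was that of Solyc09g015230, with 7.62, 15.8 and 14.6 FPKM at low nitrogen and 2.58, 3.88 and 2.21 FPKM at normal nitrogen (1.78 ± 0.27, limma, adjusted p = 0.000146). It was a root gene, at most 0.0191 FPKM in every leaf library. Solyc09g057580 had 11.3, 14.5 and 15.8 FPKM at low nitrogen and 3.17, 5.13 and 4.94 FPKM at normal nitrogen (1.46 ± 0.19, limma, adjusted p = 3.61e-05). Solyc09g059030, next in number to Solyc09g059020, fell, with 29.8, 16.7 and 15.2 FPKM at low nitrogen and 40.6, 49.5 and 59.7 FPKM at normal nitrogen (-1.28 ± 0.36, limma, adjusted p = 0.0131). Without replicate 3 of low or of normal nitrogen its call was lost (limma, adjusted p = 0.0541 and 0.0558). In roots of day 7 Solyc09g059030 differed, Guozhen minus Guizhen, by 0.11 at low and 0.44 at normal nitrogen. The Guizhen mean therefore fell at low nitrogen as well.

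In Guizhen roots of day 7, Solyc09g047930 had 11.5, 13.8 and 12.2 FPKM at low nitrogen and 0.125, 0.198 and 0.121 FPKM at normal nitrogen (3.55 ± 0.63, limma, adjusted p = 0.00259). This is the member whose libraries fall on either side of a gap in 7 of the 16 groups, and in Guozhen roots of day 7 it had 8.36, 0.327 and 0.678 FPKM at low nitrogen. Solyc09g018200 had 1.79, 1.72 and 5.07 FPKM at low nitrogen and 6.47, 9.27 and 4.56 FPKM at normal nitrogen, so that the levels overlapped (-1.07 ± 0.29, limma, adjusted p = 0.0283). Its call was lost in 6 of 11 alternatives, among them those without low nitrogen replicate 1 or 2 and without normal nitrogen replicate 1 or 2, with limma adjusted p from 0.059 to 0.164 in these 4.

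In leaves of day 7, Solyc09g064630, an abundant member, rose in both cultivars. Guozhen leaves had 97.4, 187 and 159 FPKM at low nitrogen and 49.3, 47.2 and 48 FPKM at normal nitrogen (1.55 ± 0.35, limma, adjusted p = 0.00685). Guizhen leaves had 226, 213 and 68.9 FPKM at low nitrogen and 65.9, 63.2 and 53.3 FPKM at normal nitrogen (1.29 ± 0.35, limma, adjusted p = 0.0211). In both cultivars every library at low nitrogen was above every library at normal nitrogen, in Guizhen by a small margin in replicate 3. The Guizhen call was lost without low nitrogen replicate 1 or 2 or normal nitrogen replicate 3 (limma, adjusted p = 0.114, 0.108 and 0.0701), and with only the 6 libraries in the fit (limma, adjusted p = 0.0877).

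Solyc09g063130, the most abundant member in leaf, had 1241, 394 and 1735 FPKM at low nitrogen and 324, 272 and 260 FPKM at normal nitrogen in Guozhen leaves of day 7 (1.73 ± 0.57, limma, adjusted p = 0.0402). In Guizhen leaves it had 1304, 1435 and 1411 FPKM at low nitrogen and 1474, 1422 and 1378 FPKM at normal nitrogen (-0.04 ± 0.57, limma, adjusted p = 0.976). The Guozhen libraries at normal nitrogen were thus far below those of Guizhen, and 1 of the 3 at low nitrogen stayed near the normal level. The Guozhen call was lost in 9 of 11 alternatives, among them those without low nitrogen replicate 1 or 3 and without any 1 of the normal nitrogen libraries (limma, adjusted p from 0.0684 to 0.172), and the difference of the response between the cultivars, 1.78 ± 0.80, was not called. The 304 members together held 0.632 ± 0.0152% of all FPKM in Guozhen leaves of day 7 at normal nitrogen and 0.756 ± 0.0111% in those of Guizhen (SD, n = 3 each).

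Among falls in leaf, Solyc09g061430 had 5.73, 4.46 and 4.98 FPKM at low nitrogen and 13.1, 14.0 and 12.1 FPKM at normal nitrogen in Guozhen (-1.22 ± 0.16, limma, adjusted p = 0.000334). In Guizhen it had 11, 6.87 and 9.76 FPKM at low nitrogen and 14.5, 10.6 and 15.7 FPKM at normal nitrogen (-0.52 ± 0.16, limma, adjusted p = 0.0299), and there the levels overlapped. Solyc09g031780 had 31.5, 23.7 and 17.7 FPKM at low nitrogen and 41.0, 63.5 and 55.3 FPKM at normal nitrogen in Guozhen (-1.11 ± 0.21, limma, adjusted p = 0.00234). With only the 6 libraries in the fit that call was lost (limma, adjusted p = 0.0554).

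In Guizhen leaves of day 7, Solyc09g015770 had 18.0, 33.7 and 12.6 FPKM at low nitrogen and 0.83, 5.15 and 3.03 FPKM at normal nitrogen (2.54 ± 0.41, limma, adjusted p = 0.0039). Guozhen leaves had 14.8, 34.6 and 13.3 FPKM at low nitrogen and 8.73, 4.41 and 11.6 FPKM at normal nitrogen, a change of 1.20 ± 0.41 that just missed the threshold (limma, adjusted p = 0.0502). On day 1 the same gene had 95.4 to 150 FPKM in Guozhen leaves and 77.1 to 114 FPKM in Guizhen leaves. Solyc09g061700 fell in Guizhen leaves, with 1.30, 1.52 and 4.93 FPKM at low nitrogen and 7.34, 9.12 and 6.69 FPKM at normal nitrogen (-1.41 ± 0.26, limma, adjusted p = 0.00556), and its call was lost with only the 6 libraries in the fit (limma, adjusted p = 0.0536). Solyc09g025260 had 8.62, 7.21 and 11.5 FPKM at low nitrogen and 16.3, 15.9 and 16.1 FPKM at normal nitrogen (-0.78 ± 0.23, limma, adjusted p = 0.0276). Its call was lost without low nitrogen replicate 1 or 2 and without any 1 of the normal nitrogen libraries (limma, adjusted p from 0.0641 to 0.126). In these leaves Solyc09g025260 differed, Guozhen minus Guizhen, by -0.13 at low and -0.02 at normal nitrogen. The Guozhen mean therefore fell at low nitrogen as well.

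Each of the leaf calls of day 1 was a rise. In Guozhen, Solyc09g015170 had 18.2, 22.1 and 23.3 FPKM at low nitrogen and 3.30, 2.38 and 2.59 FPKM at normal nitrogen (2.56 ± 0.35, limma, adjusted p = 0.00446). The Guizhen leaves of day 1 had 31.1, 12.9 and 16.0 FPKM of it at low nitrogen and 16.6, 21.1 and 9.18 FPKM at normal nitrogen, which overlap. In Guizhen, Solyc09g018460 had 6.50, 14.3 and 15.7 FPKM at low nitrogen and 2.89, 4.17 and 2.67 FPKM at normal nitrogen (1.57 ± 0.30, limma, adjusted p = 0.0477). Its call was lost in 7 of 11 alternatives, among them those without low nitrogen replicate 2 or 3 and without normal nitrogen replicate 1 or 3 (limma, adjusted p from 0.115 to 0.244). The day 1 counts moved with single libraries too. Without low nitrogen replicate 3 the Guozhen leaf count was 17 in place of 1, and the share of all genes called was 9.93%. The Guizhen leaf count was 2 without low nitrogen replicate 1, 3 without normal nitrogen replicate 2, and 0 without low nitrogen replicates 2 or 3 or normal nitrogen replicates 1 or 3. Over all genes, 149 were called without low nitrogen replicate 1 and 108 without normal nitrogen replicate 2, against 23 with all libraries.

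The difference of the low nitrogen response between the cultivars was called by limma for 1 member in roots of day 1, against 0.0734% of all genes, and for 1 in roots of day 7, against 0.387% of all genes. In leaves it was called for 0 members on day 1, against 0.0858% of all genes, and for 0 on day 7, against 0% of all genes, with 7 and 15 members at an unadjusted p below 0.05. The day 1 count in leaves was 1 without Guozhen low nitrogen replicate 3 or Guizhen low nitrogen replicate 1.

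The member called in roots of day 1 was Solyc09g064940, near the end of the segment. Guozhen roots of day 1 had 0.270, 0.375 and 0.264 FPKM at low nitrogen and 0.248, 0.308 and 0.531 FPKM at normal nitrogen. Guizhen roots of day 1 had 0.241, 0.292 and 0.179 FPKM at low nitrogen and 153, 88.1 and 116 FPKM at normal nitrogen. All root libraries other than the last 3 lay between 0.0722 and 0.531 FPKM, while leaf libraries of both cultivars ranged from 0.839 to 145 FPKM. In Guizhen roots the change with low nitrogen was -6.57 ± 0.15, and the difference of the responses, Guozhen minus Guizhen, was 6.51 ± 0.21 (SE of limma). In root the gene passed the filter only through the 3 Guizhen libraries at normal nitrogen, so that it had to differ and no p is given. Without any 1 of them it no longer passed and was not tested, and the count of differences was then 0.

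The loci preset as Rubisco small subunits were low in these roots beside leaves, and their part in the result was not tested. Solyc02g063150 ranged from 12 to 22.1 FPKM in Guizhen roots of day 1 at low nitrogen and from 11.9 to 16.4 FPKM at normal nitrogen. Solyc03g034220 ranged from 19.4 to 49.3 FPKM in Guizhen roots of day 1 at low nitrogen and from 22.5 to 30.1 FPKM at normal nitrogen. In Guozhen roots of day 1 at normal nitrogen Solyc02g063150 ranged from 10.7 to 13.6 FPKM and Solyc03g034220 from 17 to 27.6 FPKM, and in roots of day 7 of both cultivars they were at most 8.45 and 20.5 FPKM.

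The neighbouring Solyc09g064930 moved the other way in the same libraries. It had 58.9, 55.0 and 45.5 FPKM at low nitrogen and 35.4, 32.0 and 27.6 FPKM at normal nitrogen in Guizhen roots of day 1 (0.73 ± 0.10, limma, adjusted p = 0.0112). Guozhen roots of day 1 had 48.4, 51.9 and 50.2 FPKM at low nitrogen and 50.9, 54.3 and 48.1 FPKM at normal nitrogen. The Guizhen libraries at normal nitrogen, where Solyc09g064940 was high, were the lowest of the 12 root libraries of day 1. The difference of this response between the cultivars was -0.75 ± 0.15 and was not called, and with only the 6 libraries in the fit the Guizhen call was lost (limma, adjusted p = 0.33). Whether the 2 neighbours share reads was not tested.

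**Figure D5:**
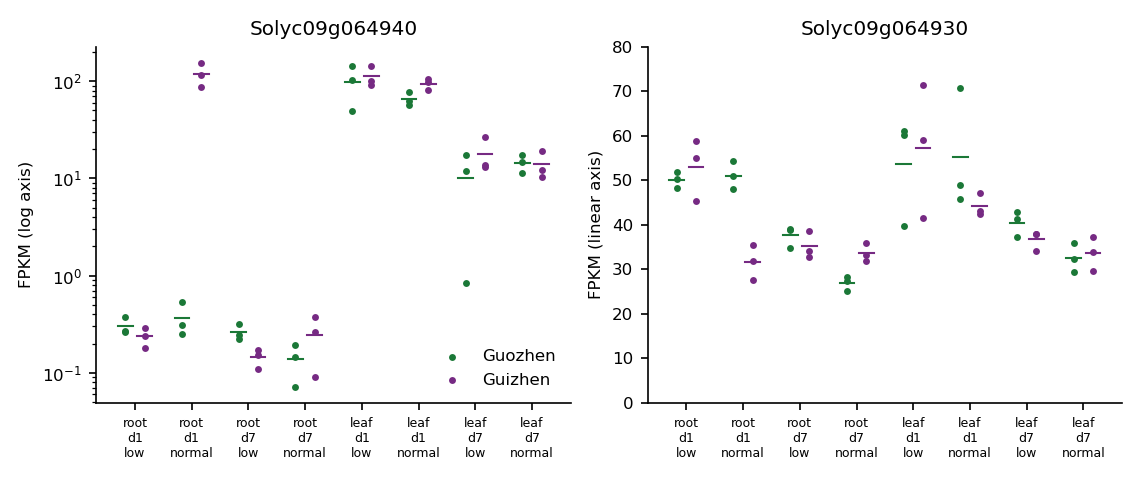
FPKM of Solyc09g064940 (left, log axis) and its neighbour Solyc09g064930 (right, linear axis) in each organ, day and nitrogen level; points are single libraries, with Guozhen left of Guizhen, and short lines are means of 3 libraries. The 3 Guizhen roots of day 1 at normal nitrogen stand at 88.1 to 153 FPKM of Solyc09g064940 and all other roots at most at 0.531 FPKM.

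In roots of day 7 the difference of the response was called for Solyc09g056160. It had 10.6, 12.5 and 11.4 FPKM at low nitrogen and 16.8, 19.1 and 20.9 FPKM at normal nitrogen in Guozhen, a fall (-0.67 ± 0.10, limma, adjusted p = 0.000185). In Guizhen it had 17.5, 15.4 and 17.2 FPKM at low nitrogen and 14.7, 15.7 and 19.1 FPKM at normal nitrogen (0.02 ± 0.10, limma, adjusted p = 0.938). The difference, -0.69 ± 0.15, was near the threshold and its call was lost in 12 of 17 alternatives. Lost calls included those without Guozhen low nitrogen replicate 1 or 2, Guozhen normal nitrogen replicate 2 or 3, Guizhen low nitrogen replicate 1 or 3 and Guizhen normal nitrogen replicate 1 or 2. The count of members with a called difference in roots of day 7 was 4 without Guozhen low nitrogen replicate 3 and 3 without Guizhen low nitrogen replicate 2.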

How the data were processed

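RNA was sequenced from 48 tomato libraries in 16 groups of 3, grouped by sample title. The values are FPKM per gene as deposited by the authors in 1 table of 29898 rows, of which 28005 carry a locus number and 1893 were newly assembled. HISAT2 and StringTie are named in the submitters' processing notes. Their versions, the genome build, the annotation and the use of strand are not given in the sources used here. FPKM are not counts and column sums lay between 577123 and 689680. Read depth is not given, so that no counting error can be stated and exact 0 values can be failed estimates. No 2 libraries held identical values. The members and lists were chosen with earlier results of these data known.

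All work was done on log2(FPKM + 1), that is, with a pseudocount of 1. For the nitrogen contrasts limma 3.58.1 (R 4.3.3) was run on each organ's 24 libraries, with 1 mean per group and a variance trend, after a filter of at least 1 FPKM in at least 3 libraries of the organ. Genes with a Benjamini-Hochberg adjusted p below 0.05 were called. The fit was tested on simulated data with known changes. An exact permutation test of 3 against 3 libraries could not call a single gene and was not used.

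Named loci, per organ, were the 5 members with the largest difference in each direction among those without overlap in any condition of the organ and a higher cultivar mean of at least 5 FPKM, and the 4 most abundant members. Per nitrogen comparison they were up to 2 rises and 2 falls among called members with a mean of at least 5 FPKM in 1 group, or all where few were called. Solyc09g064940 and Solyc09g064930 were listed from earlier results of these data, and Solyc09g018220 was preset as a locus of interest. The gene table at hand (41476 entries, assembly SLM_r2.1) shared no identifier with the segment. Python 3.11.15 and matplotlib 3.10.9 drew the figures. Alternatives tried were other pseudocounts, filters, scalings, a replicate block, fits with fewer libraries and leaving out each library.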

Additional observations from a re-analysis of the deposited data

Results flagged for a closer look

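In 2 members the low nitrogen response differed between the cultivars in the limma fit. This difference is made of the cultivar differences on which the segment was chosen, so that neither is independent evidence. For Solyc09g064940 in roots of day 1 it was 6.51, Guozhen minus Guizhen, from 3 Guizhen libraries at normal nitrogen through which alone the gene passed the filter in root. For Solyc09g056160 in roots of day 7 it was -0.69, with a fall in Guozhen and no called change in Guizhen, and this call was lost in 12 of 17 alternatives.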

How the results depend on the processing

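The 20 named differences between the cultivars kept their sign in all 520 settings tried, and 6 moved by more than 1 SD. They were chosen for libraries without overlap in any condition of the organ. Leaving out a library or changing the pseudocount could therefore not reverse them, and the kept sign is no support. Of 22 named nitrogen responses, 10 were called under all alternatives run, 12 lost the call at least once, and none changed sign. Those 10 include the response of Solyc09g064940 in Guizhen roots of day 1 and the difference of its response between the cultivars. They had 8 and 14 alternatives, against 11 and 17 for other loci. Without any 1 of the Guizhen normal nitrogen libraries this gene failed the filter and was not tested. It passed the filter only because it differed, so its kept calls are no support. The cause of lost calls was not tested. Counts of members apart between the cultivars depended on the definition. In the order root day 1 low, root day 1 normal, root day 7 low, root day 7 normal, leaf day 1 low, leaf day 1 normal, leaf day 7 low and leaf day 7 normal, a pseudocount of 0.1 gave 28, 29, 42, 31, 28, 31, 21 and 34 members, and no overlap of any size gave 90, 101, 119, 110, 80, 114, 87 and 83, against 11.4%, 16.9%, 27.9%, 17.3%, 13.3%, 26.4%, 17.6% and 13.1% of all genes (26.3% to 39.1% of the members). A mean of at least 5 FPKM gave 6 in root day 1 low, 11 and 8 in root day 7 low and normal, 10 in leaf day 1 normal, and 7 and 9 in leaf day 7 low and normal. Leaving out 1 library gave 11 to 16, 13 to 15, 16 to 25, 16 to 20, 9 to 16, 18 to 21, 14 to 18 and 15 to 25 in the order above. By construction 2 libraries against 3 overlap less often. No share of all genes is given for the pseudocount of 0.1, the mean of at least 5 FPKM or the left-out libraries. Those counts are therefore not read as a result about the members.

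Nitrogen counts were as follows. With a change of at least 1 demanded as well, which was added after seeing the data, there were 7 members in Guozhen roots of day 7, 7 in Guizhen roots of day 7, 1 in Guizhen roots of day 1, 7 in Guozhen leaves of day 7 and 4 in Guizhen leaves of day 7. In the same order, the counts over all genes were 1325, 607 and 1 of 20435 in roots and 604 and 566 of 19815 in leaves. With a fit on a comparison's own libraries, limma called 39 in Guozhen and 1 in Guizhen roots of day 7, 2 in Guozhen and 15 in Guizhen leaves of day 7, 1 in Guizhen roots of day 1, 0 in Guizhen leaves of day 1 and 0 differences of response in roots of day 7. Over all genes, the counts for roots of day 7 were 3807 of 18610 in Guozhen and 49 of 18527 in Guizhen. For leaves of day 7 they were 432 of 17566 and 1549 of 17451. They were 7 of 18740 in Guizhen roots of day 1, 5 of 17919 in Guizhen leaves of day 1, and 0 of 19305 for the differences. In this fit and with a change of at least 1, the called member in Guizhen roots of day 1 was Solyc09g064940. That gene passed the filter only because it differed, so its call is not a test result. Without the filter there were 1 in Guozhen roots of day 1, 2 in Guizhen leaves of day 1, and 2 and 3 differences of response in roots of day 1 and day 7. Over all genes those were 11 of 28898, 66 of 28301, and 10 and 173 of 28898. With median-of-ratios scaling there were 2 and 0 differences of response in roots of day 1 and day 7, against 16 and 62 of 20420 genes. In Guizhen leaves of day 1 there were 2, against 21 of 19799 genes. With a pseudocount of 0.1 there were 0 differences of response in roots of day 7, against 21 of 20435 genes. In Guizhen leaves of day 1 there were 0, against 6 of 19815 genes.

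Leaving out 1 library gave these lowest and highest counts. In roots they were 0 to 0 for Guozhen and 1 to 2 for Guizhen on day 1, with 0 to 1 differences of response, and 41 to 63 for Guozhen and 5 to 29 for Guizhen on day 7, with 0 to 4 differences. In leaves they were 1 to 17 for Guozhen and 0 to 3 for Guizhen on day 1, with 0 to 1 differences, and 13 to 48 for Guozhen and 6 to 53 for Guizhen on day 7, with 0 to 0 differences. Over all genes the range in roots of day 7 was 3892 to 5095 for Guozhen and 457 to 2973 for Guizhen. In leaves of day 7 it was 1176 to 4281 for Guozhen and 618 to 4219 for Guizhen.

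Within a cultivar, organ and day, replicate numbers did not pair the low with the normal nitrogen libraries. Whether same-numbered root and leaf libraries belong together was not tested. The deviations of same-numbered libraries correlated between -0.204 and 0.160, and in no comparison were all 3 above 0.1. With the replicate number as a block, limma called 0 members in Guizhen leaves of day 1 and 0 differences of response in roots of day 7, and no other count moved by over 1.5 times.

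Restricting the members to locus numbers below Solyc09g060000, also added after seeing the data, gave 8 to 19 members apart per comparison, each within 1.5 times the count of all members. Over all genes the same rule held for 1.06% to 2.69% per comparison.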

Other observations

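Newly assembled genes without a locus number also lie on chromosome 9. Of 137 in the table, 53 passed the filter and 13 of these were at least 2-fold apart between the cultivars without overlap in at least 1 of 8 comparisons, 4 of them higher in Guozhen and 9 lower, against 8.54% of all genes. In 8 the libraries did not overlap in any of the 8 comparisons, in the same direction throughout, against 0.402% of all genes. By position in bins of 10 Mb, 3 of these 8 lay between 20 and 30 Mb, among 11 genes, and 4 between 40 and 50 Mb, among 9 genes. The genome build behind these positions is not given in the sources used here.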
